A study of Mus musculus with 4 samples.

Results

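Retnlg-high neutrophils were the gated neutrophils of tumor-bearing mouse lungs in which the summed UMIs (unique molecular identifiers, the counted RNA molecules) of Retnlg, Lcn2, Mmp8 and Wfdc21 exceeded those of Il1b, Ccrl2, Tnfaip2 and Clec4e. A barcode entered the neutrophil gate with at least 5 UMIs of S100a8 and S100a9 together, at least 2 UMIs of Csf3r, Cxcr2, Il1r2 and Retnlg together, no UMI of Cd3e, Cd3d, Cd3g or Cd79a, and at most 1 UMI of C1qa, C1qb and C1qc together. The rule found 87 cells among 1358 gated neutrophils, 9256 barcodes that passed quality filters and 10382 deposited barcodes. The other 1271 gated cells are called Il1b-high neutrophils here, and no cell tied. These genes chose the cells, so their levels are given below as a description only.

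Neutrophils are short-lived granulocytes made in the bone marrow in stages, and each stage loads a different set of granule proteins. Primary granule enzymes come first, secondary granule proteins such as lactoferrin and cathelicidin follow, and gelatinase granule proteins such as Mmp9 come last, after which the cells leave for the blood. Retnlg, a resistin-like secreted protein, is a marker of mature mouse neutrophils in blood, whereas Il1b and Ccrl2 are genes of activated neutrophils in tissue. S100a8 and S100a9 together form calprotectin, the most abundant cytosolic protein complex of the neutrophil.

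The study put 4T1 mouse mammary carcinoma cells into the vein of Balb/c mice and, at day 14, isolated CD45-selected leukocytes from the perfused and digested lungs. Libraries WT 1 and WT 2 are labelled as lungs of mice given 4T1 WT cells, and libraries PD-L1 KO 1 and PD-L1 KO 2 as lungs of mice given PDL1-KO 4T1 cells, which cannot make the PD-1 ligand PD-L1. The knockout was in the injected cells and not in the mice, so the leukocytes of both groups are of the host genotype, and the labels give neither the number of knockout clones nor whether each library is a separate mouse. Values given for the 4 libraries in order are those of WT 1, WT 2, PD-L1 KO 1, then PD-L1 KO 2. The names of the deposited files mark the WT libraries as knockout and give the PD-L1 KO libraries a different prefix. Every direction below is that of the libraries as labelled, and each difference of PD-L1 KO from WT would reverse if the file names were right. p-values measure only the spread between 2 libraries per label, which may be technical. The labels give a range of 2300 to 2700 cells per sample, and the files held 2370 to 2736 barcodes and 17618220 to 19635983 UMIs per library. No 2 libraries had more than 3 barcodes in common, and no Retnlg-high neutrophil was among these. The Cd274 gene, which encodes PD-L1, was deleted in the carcinoma cells, which the CD45 selection is meant to leave out. The leukocytes are of the host genotype, so their Cd274 values cannot check the labels. Any carcinoma cells left in the libraries were not examined for it.

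Promoter sequences are shown for Retnlg, S100a9 and Mmp8 of the defining genes, and for Il1b of the opposing side, to show the DNA before genes that set the cells apart. Each is the stretch of 250 bases before the RefSeq start (GRCm38.p6, gene strand), and 5 of the 6 marker genes had such a sequence. Capitals mark matches to TTNNGNAA on either strand, a loose form of the site bound by C/EBP factors, which drive granulocyte genes. Retnlg lies on chromosome 16 (window 48872358 to 48872607, plus strand), S100a9 on chromosome 3 (90695722 to 90695971, minus strand), Mmp8 on chromosome 9 (7558179 to 7558428, plus strand) and Il1b on chromosome 2 (129371140 to 129371389, minus strand).
Retnlg: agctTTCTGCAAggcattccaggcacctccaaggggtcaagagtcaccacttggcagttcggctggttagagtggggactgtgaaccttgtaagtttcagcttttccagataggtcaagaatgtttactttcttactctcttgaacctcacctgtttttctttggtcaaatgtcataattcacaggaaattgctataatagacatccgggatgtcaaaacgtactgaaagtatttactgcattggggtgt
S100a9: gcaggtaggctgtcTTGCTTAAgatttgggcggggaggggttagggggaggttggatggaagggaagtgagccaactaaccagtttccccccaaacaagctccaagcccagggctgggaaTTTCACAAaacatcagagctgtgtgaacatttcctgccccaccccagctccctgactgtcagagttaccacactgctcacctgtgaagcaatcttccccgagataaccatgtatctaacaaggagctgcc
Mmp8: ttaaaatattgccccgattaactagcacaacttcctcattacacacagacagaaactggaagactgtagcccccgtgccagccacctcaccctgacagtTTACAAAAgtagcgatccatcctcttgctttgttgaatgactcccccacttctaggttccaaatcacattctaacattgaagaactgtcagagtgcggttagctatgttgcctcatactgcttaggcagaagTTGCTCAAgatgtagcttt
Il1b: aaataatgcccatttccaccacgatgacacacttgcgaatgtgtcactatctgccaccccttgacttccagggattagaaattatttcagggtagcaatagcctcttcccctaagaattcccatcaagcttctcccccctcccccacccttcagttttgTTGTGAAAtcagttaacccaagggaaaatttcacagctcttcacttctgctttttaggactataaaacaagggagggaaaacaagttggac
Matches may overlap each other in the search. S100a9 and Mmp8 had 2 matches each, and Retnlg and Il1b had 1 each. Of 32851 promoter windows of this length, 36.9% held at least 1 match, so a match is common.

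Retnlg, the gene that names the cells, stood at 9209 and 13730 counts per 1000000 UMIs (CPM) in the pooled Retnlg-high cells of WT 1 and WT 2, and at 23010 and 12030 CPM in those of PD-L1 KO 1 and PD-L1 KO 2. In Il1b-high neutrophils it lay between 1120 and 1576 CPM. Every library thus held the difference that the rule selects. Of Retnlg-high cells, 97.7% had a Retnlg UMI, against 61.8% of Il1b-high cells and 10.3% of T cells, which should lack the gene. After each cell was thinned to 1000 UMIs these shares were 96.5%, 49.3% and 6.50%. The T cell share is a background level for this gene, and its source was not tested. The unthinned cells had median depths of 2202 to 2891 UMIs (Retnlg-high), 1650 to 1964 (Il1b-high) and 4291 to 5073.5 (T cells) by library; 2 Retnlg-high cells were too shallow to thin.

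S100a8 stood at 64780, 63120, 138700 and 125400 CPM in Retnlg-high cells of the 4 libraries in order, and at 27940 to 39960 CPM in Il1b-high cells. S100a9 stood at 84260, 72810, 169100 and 144200 CPM in the same order, against 46580 to 61600 CPM in Il1b-high cells. Both calprotectin genes were thus higher in Retnlg-high cells of all 4 libraries, and higher in both PD-L1 KO than in both WT libraries when all cells were pooled. Without the mixed-marker cells described below, S100a9 stood at 180900, 134600, 169100 and 171200 CPM, so WT 1 lay above both PD-L1 KO libraries. The other defining genes differed in the same direction. Lcn2, an iron-trapping granule protein, averaged 2041 CPM against 583 CPM; Mmp8, the neutrophil collagenase, averaged 903 CPM against 197 CPM; and Wfdc21, a secreted whey-acidic-protein family member, averaged 3040 CPM against 1010 CPM. On the opposing side, Il1b, the inflammatory cytokine, was still 5490 to 12210 CPM in Retnlg-high cells, against 14400 to 16650 CPM in Il1b-high cells.

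The separation was a matter of degree. Across gated cells, the Retnlg-side share of the 8 genes' UMIs fell off without a gap: 54 cells lay at 40 to 50% and 32 cells at 50 to 60%. Just inside the rule, 16 cells exceeded it by 1 to 3 UMIs, with medians of 33 UMIs on the Retnlg side and 31 on the Il1b side. Just outside, 12 cells missed by at most 2 UMIs, with medians of 28 and 29.5 UMIs.

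**Figure D1:**
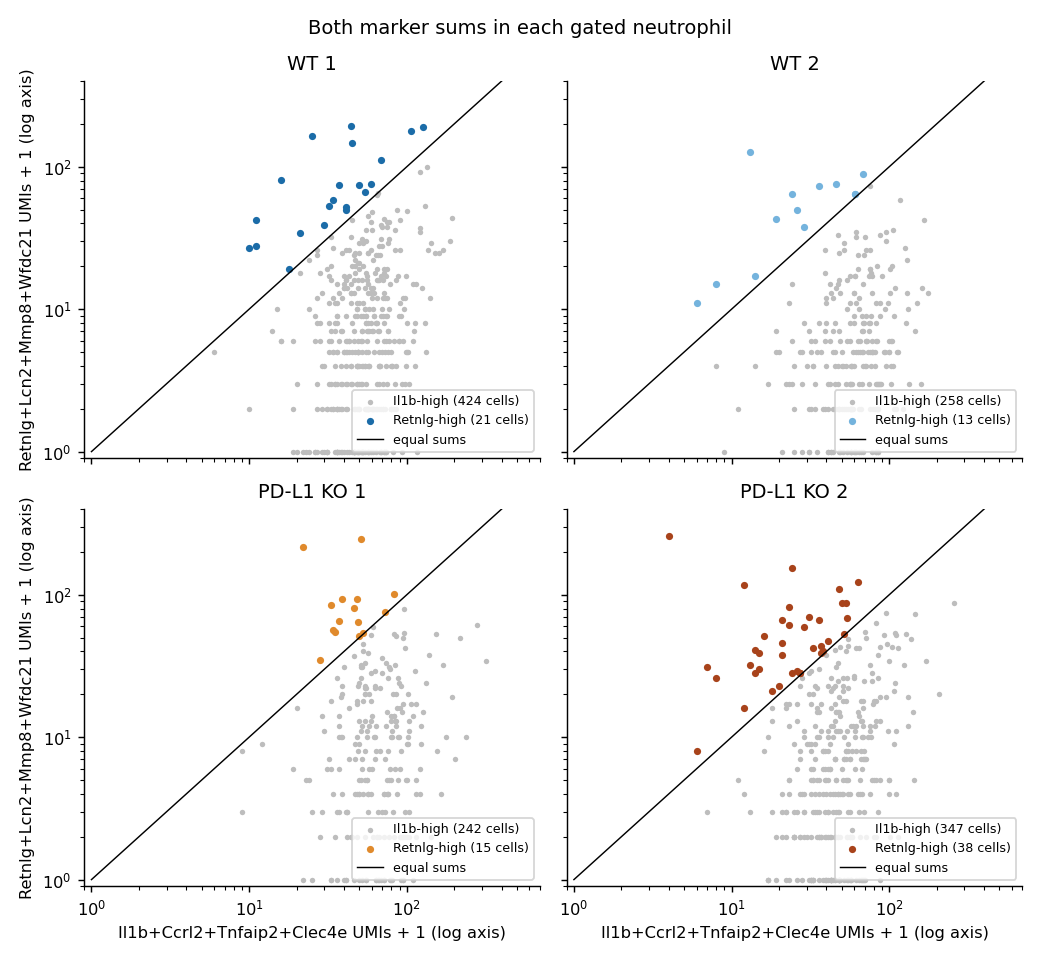
Each point is a gated neutrophil; the x axis is the UMI sum of the 4 Il1b-side genes and the y axis that of the 4 Retnlg-side genes, each plus 1 on a log axis, in 1 panel per library. The colored cells above the line of equal sums are the 21, 13, 15 and 38 Retnlg-high cells, and no empty band separates them from the gray Il1b-high cells.

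Depth within the Retnlg-high cells ran from 621 to 55757 UMIs, with a median of 2507, and calprotectin took a median of 29.6% of a cell's UMIs, from 0.0433% to 48.2%. Calprotectin medians by library were 29.4%, 26.0%, 31.7% and 30.0% for the 4 libraries in order. In Il1b-high cells the same medians were 10.9%, 8.20%, 12.0% and 11.7%. The typical Retnlg-high cell of each library therefore carried a larger calprotectin share than the typical Il1b-high cell.

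A subset of the cells carried markers of other lineages. By a definition made after the cells were seen (at least 5 UMIs, and at least 0.1% of all UMIs, from 65 marker genes of other cell types), 11 of the 87 were mixed-marker cells and 76 were single-lineage cells. The 65 genes left out the erythroid markers and Chil3, which is on the alveolar macrophage list. The PD-L1 KO 2 cell of 9200 UMIs held 22 UMIs of that full list but 5 of the 65 genes, so it counted as single-lineage. The mixed-marker cells numbered 4, 3, 0 and 4 in the 4 libraries in order, and they held 64.7%, 54.5%, 0.0% and 22% of all UMIs of the Retnlg-high cells there. They therefore moved with the labels, and results that rest on them are given with and without them. The deepest, a WT 1 cell of 55757 UMIs, held 345 UMIs of endothelial and 296 of epithelial or carcinoma markers, and calprotectin was 1.07% of its UMIs. A WT 1 cell of 15462 UMIs held 128 platelet-marker UMIs, and a WT 2 cell of 8462 UMIs held 68 monocyte-marker UMIs. A WT 2 cell of 11538 UMIs held 37 of alveolar macrophage markers with Chil3 counted, and 28 UMIs of the 65 genes. The WT 2 cells of 8462 and 11538 UMIs held only 6 and 5 calprotectin UMIs (0.0709% and 0.0433%), against the gate's minimum of 5. In both, UMIs of the 65 genes (72 and 28) outnumbered calprotectin, so their own markers give little ground for the name neutrophil. A PD-L1 KO 2 cell of 9411 UMIs held 45 of natural killer markers. The Scrublet doublet caller marked none of the 87. Mixed-marker cells also made up 17.5% to 23.6% of Il1b-high cells by library. Of the 8 Retnlg-high cells with a calprotectin share under 10%, 6 were mixed-marker cells and the other 2 were PD-L1 KO 2 cells of 1524 and 621 UMIs.

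**Figure D2:**
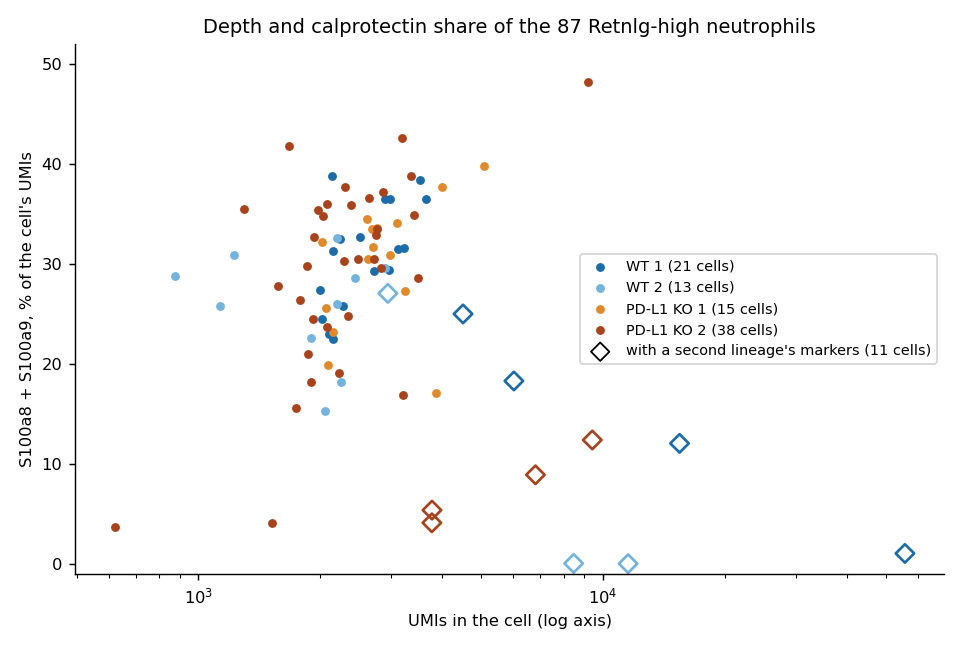
Each point is a Retnlg-high neutrophil; the x axis is its UMIs (log axis) and the y axis the share of S100a8 and S100a9 in them, colored by library, with open diamonds for the 11 mixed-marker cells. Most single-lineage cells lie near the medians of 30.5% calprotectin and 2299 UMIs, whereas the mixed-marker cells run to 55757 UMIs at low shares; 1 single-lineage cell of 9200 UMIs has the highest share, 48.2%.

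The labels of cell identity were checked against fixed marker lists. All 10 general neutrophil markers, of which Csf3r, Cxcr2 and Il1r2 belong to the gate, were detected in every library, summing to 9248 to 18030 CPM. The gate itself requires Cd3e, Cd3d and Cd3g to be at 0; of the other 4 T cell markers, Trac, Cd8a and Cd4 were at 0 UMIs in all 4 libraries and Trbc2 had 2 UMIs in PD-L1 KO 2 alone. Basophil or mast cell markers were at 0 in all 4. Monocyte markers summed to 791, 1710, 182 and 537 CPM in the 4 libraries in order. In single-lineage cells they summed to 224, 104, 182 and 142 CPM with Ccr2 and F13a1 at 0 throughout. The single-lineage definition counts these same markers, so their low sums there follow from it and are no check of identity. Endothelial markers summed to 2745 CPM in WT 1 and to at most 45.5 CPM elsewhere, and epithelial or carcinoma markers to 2365 CPM in WT 1 and at most 45.5 CPM elsewhere. The part of these cells in the gene results was not tested beyond the values without them. The 9 primary granule genes, those of the earliest stage, summed to 783.6 CPM in WT 2 and to 45.5 to 277.6 CPM elsewhere, and in single-lineage cells to 44.8 to 201.6 CPM. Ctsc, the protease that activates granule proteases, gave most of the WT 2 sum, at 664.9 CPM (28 UMIs, of which 19 lay in 1 cell). Among the secondary granule genes, Ltf, Camp and Ngp were rare: 15 of 87 cells held any UMI of these 3, and 3 held 10 or more. Lcn2, also stored in those granules but used by the rule, was found in 20, 9, 11 and 28 cells of the 4 libraries in order. The word circulating could not be checked, since no blood sample was analysed here.

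Retnlg-high cells made up 4.72% (95% Wilson interval 3.11 to 7.11) of gated neutrophils in WT 1, 4.80% (2.83 to 8.03) in WT 2, 5.84% (3.57 to 9.41) in PD-L1 KO 1 and 9.87% (7.28 to 13.3) in PD-L1 KO 2. Both PD-L1 KO libraries lay above both WT libraries, which did not hold with a wider margin of the rule. The means were 4.76% ± 0.0551 (SD, n = 2) for WT and 7.85% ± 2.85 (SD, n = 2) for PD-L1 KO, and an exact two-sided permutation test of the difference of 3.10 percentage points gave p = 0.3333, the smallest this design allows. Without PD-L1 KO 2 the difference was 1.08 points, and without PD-L1 KO 1 it was 5.11 points. Intervals cover counting error only.

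As a share of all kept cells, they were 0.837% in WT 1, 0.538% in WT 2, 0.661% in PD-L1 KO 1 and 1.84% in PD-L1 KO 2. The WT and PD-L1 KO libraries overlapped on this measure (difference 0.564 points, exact permutation p = 0.6667), and without PD-L1 KO 2 the difference turned to -0.0269 points. PD-L1 KO 2 alone therefore held the high share of all cells. Without mixed-marker cells the share of gated neutrophils was 4.73% ± 0.141 (SD, n = 2) in WT and 9.14% ± 2.53 (SD, n = 2) in PD-L1 KO, again with an exact p of 0.3333.

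**Figure D3:**
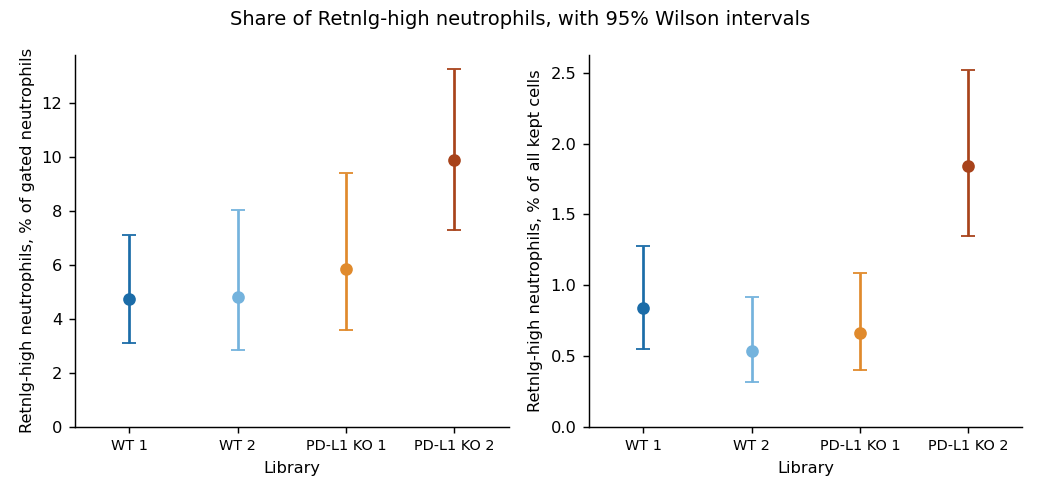
Points are the share of Retnlg-high neutrophils in each library, as a percent of gated neutrophils (left) and of all kept cells (right), with 95% Wilson intervals as bars. On the left both PD-L1 KO libraries (5.84% and 9.87%) lie above both WT libraries (4.72% and 4.80%), and on the right only PD-L1 KO 2 (1.84%) stands apart.

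Genes outside the rule were then compared between Retnlg-high and Il1b-high neutrophils, as a description with no test, because the rule split the same cells. Ratios are log2 of CPM plus a pseudocount of 20 CPM, averaged over the 4 libraries, for 1498 genes with at least 100 CPM in either state; the pseudocount understates the ratios of low genes. Of these, 52 (3.47%) were higher in all 4 libraries and 398 (26.6%) lower, and the median log2 ratio was -0.35. The rule genes took 16.4% to 35.7% of the UMIs of Retnlg-high cells and 10.1% to 12.9% of those of Il1b-high cells, which lowers the CPM of all other genes in the former. With the rule genes left out of the totals, 107 genes (7.14%) were higher in all 4 libraries and 210 (14%) lower, with a median of -0.14. Over the other 3 libraries, on the first scale, 146 genes were higher without WT 1 and 82 without WT 2, where 638 were lower; fewer libraries then have to share a direction. In single-lineage cells, with the rule genes left out of the totals, 186 genes (12.4%) were higher and 306 (20.4%) lower in all 4 libraries. Below, counts and medians of gene groups leave the rule genes out of the totals, whereas CPM and ratios of single genes use full totals unless stated.

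Ly6g, the surface antigen by which mouse neutrophils are sorted, was the furthest above equal. It stood at 222, 261, 682 and 444 CPM in Retnlg-high cells of the 4 libraries in order, against 42.0, 44.9, 56.9 and 43.2 CPM in Il1b-high cells. The states did not overlap, and the mean log2 ratio was 2.54 in all cells and 2.53 in single-lineage cells. Ly6g UMIs were found in 49.4% of Retnlg-high and 10.2% of Il1b-high cells, and in 31.8% and 4.81% after thinning, against 0.938% of thinned T cells.

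Prok2, a secreted ligand of prokineticin receptors known from neutrophils, stood at 55.4, 47.5, 136 and 222 CPM against 16.8, 6.41, 13.3 and 24.1 CPM, a mean log2 ratio of 1.77. The Retnlg-high values rested on 7, 2, 6 and 24 UMIs. Ifitm6, an interferon-induced transmembrane family member, averaged 866 CPM against 191 CPM, a log2 ratio of 1.81. In single-lineage cells Ifitm6 was lower than in Il1b-high cells in WT 2, with a lowest library ratio of -0.89. Timp2, an inhibitor of matrix metalloproteinases, averaged 329 CPM against 108 CPM, and Aldh2, the mitochondrial aldehyde dehydrogenase, 358 CPM against 170 CPM. Rdh12, R3hdm4, Ckap4, Atxn10 and Prr13 were also among the 15 genes furthest above equal, with mean log2 ratios of 0.84 to 0.97, as were the stefin and S100 genes below. Of the 15, 14 kept a ratio above 0 in all 4 libraries in single-lineage cells, the exception being Ifitm6.

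The calprotectin and stefin cluster stood highest of the gene groups. Of its 8 members measured outside the rule, 5 were higher in all 4 libraries and 1 lower, against 7.14% and 14% of all genes. The median log2 ratio was 1.34 (1.23 in single-lineage cells). In single-lineage cells 6 were higher and 1 lower, against 12.4% and 20.4% of all genes. S100a6, a calcium-binding S100 protein, averaged 9386 CPM against 3855 CPM. Stefins inhibit cysteine cathepsins; Stfa2 averaged 512 CPM against 111 CPM, BC100530 1331 CPM against 455 CPM, and Gm5483 1787 CPM against 713 CPM. Stefin genes lie in a cluster of near-identical copies, so reads could be split among them and the single-gene values are uncertain. S100a4 went the other way, with a mean log2 ratio of -1.61.

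Of 15 secondary and tertiary granule genes, 3 were higher in all 4 libraries and none lower, against 7.14% and 14% of all genes. In single-lineage cells 8 were higher and none lower, against 12.4% and 20.4% of all genes there. The median log2 ratio was 0.64 in all cells. Mmp9, gelatinase B, stood at 625, 594, 1001 and 694 CPM against 448, 546, 452 and 414 CPM. Pglyrp1, a bacterial peptidoglycan-binding granule protein, stood at 585, 665, 1160 and 1147 CPM against 514, 487, 477 and 485 CPM. For both genes every Retnlg-high value lay above every Il1b-high value. Camp, the cathelicidin, was 0, 23.8, 22.7 and 2655 CPM, so the one high value was in PD-L1 KO 2.

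Glycolysis and hypoxia genes leaned the same way, with a median of 0.39. Of 13 genes, 3 were higher in all 4 libraries and none lower, against 7.14% and 14% of all genes. In single-lineage cells 8 were higher and 1 lower, against 12.4% and 20.4% of all genes. The 3 genes higher in all cells were Eno1 (enolase 1), Pkm (pyruvate kinase) and Slc16a3, the lactate exporter. Their mean log2 ratios were 0.63, 0.55 and 0.67 with the rule genes left out of the totals and 0.40, 0.31 and 0.44 on full totals. On full totals the Slc16a3 ratio was below 0 in WT 2 (-0.04).

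Activation genes were on the low side. Of 15 cytokine and chemokine genes of activated neutrophils measured outside the rule, 6 were lower in all 4 libraries and none higher, against 14% and 7.14% of all genes. The median log2 ratio was -0.67 (-0.78 in single-lineage cells). In single-lineage cells 7 were lower and 1 higher, against 20.4% and 12.4% of all genes. Csf1, the macrophage growth factor, stood at 23.7, 0, 22.7 and 18.5 CPM (3, 0, 1 and 2 UMIs) against 123, 167, 54.4 and 69.3 CPM. Ptgs2, the inducible cyclooxygenase, stood at 166, 214, 273 and 37.0 CPM against 468, 652, 538 and 295 CPM. Every Retnlg-high value of Csf1 and of Ptgs2 lay below every Il1b-high value, on at most 3 UMIs per library for Csf1 and 21, 9, 12 and 4 UMIs for Ptgs2. The feedback inhibitors Nfkbia, Tnfaip3 and Zfp36 had mean log2 ratios of -0.90, -0.98 and -1.17. Gadd45b, a stress-induced gene, averaged 90.0 CPM against 507 CPM (-2.42), and Dusp2, a phosphatase that acts on MAP kinases, 34.8 CPM against 186 CPM (-2.02).

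Receptors showed no common lead. Of 18 measured outside the rule, none was higher in all 4 libraries and 3 were lower, against 7.14% and 14% of all genes, with a median of -0.15. In single-lineage cells 1 was higher and 5 lower, against 12.4% and 20.4% of all genes. Cxcr4, the receptor that holds neutrophils in the marrow, stood at 47.5, 94.99, 0 and 18.5 CPM (6, 4, 0 and 2 UMIs) in Retnlg-high cells, against 121, 263, 197 and 75.4 CPM in Il1b-high cells of the same libraries. The receptors in the gate, Csf3r (the G-CSF receptor) and Cxcr2 (a chemokine receptor for release from the marrow), averaged 1325 against 1787 CPM and 773 against 1029 CPM. In single-lineage cells of both states these averages were 1692 against 2740 CPM and 1116 against 1595 CPM. The integrins Itgal and Itga4 were lower in all 4 libraries, with mean log2 ratios of -1.14 and -1.32.

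Type I interferon response genes were lower more often than higher: of 23 measured, 6 were lower in all 4 libraries and 1 higher, against 14% and 7.14% of all genes. In single-lineage cells 8 were lower and none higher, against 20.4% and 12.4% of all genes. Isg15, a ubiquitin-like modifier, stood at 388, 736, 569 and 361 CPM against 801, 1045, 1182 and 700 CPM. Gbp2, a guanylate-binding protein, averaged a log2 ratio of -1.48. Per cell the lists were close: outside the rule genes, the medians were 19.2, 14.2, 16.3 and 21.1 interferon-response UMIs per 1000 in Retnlg-high cells and 18.2, 14.7, 18.6 and 22.01 in Il1b-high cells.

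Antigen-presentation genes were also lower more often than higher. Of 6 measured MHC class II genes 3 were lower in all 4 libraries, and of 15 class I genes 4, against 14% of all genes. In single-lineage cells 2 class II and 4 class I genes were lower, against 20.4% of all genes. No class II gene was lower in both settings, and no gene of either list was higher in all 4 libraries in either setting. The class II values moved with the mixed-marker cells. Cd74, the invariant chain, stood at 1131, 23.8, 341 and 1434 CPM against 1953, 2330, 2628 and 1789 CPM, and its mean log2 ratio of -2.43 was -1.43 in single-lineage cells. B2m, the class I light chain, averaged a log2 ratio of -0.99. Gzma, a granzyme of cytotoxic lymphocytes, was 0 CPM in 3 libraries and 389 CPM in PD-L1 KO 2, against 367 to 530 CPM in Il1b-high cells; its ratio of -3.41 became -0.21 in single-lineage cells. Ccl5, a chemokine also made by lymphocytes, moved from -3.29 to -2.27.

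Of the other lists, 1 of 15 NADPH oxidase and phagocytosis genes was lower in single-lineage cells and 5 higher, against 20.4% and 12.4% of all genes, whereas none was lower or higher in all 4 libraries in all cells. In all cells, of 16 transcription factors of the lineage 3 were lower in all 4 libraries (Klf2, Klf6 and Fosl2, with mean log2 ratios of -0.59, -0.75 and -0.97), and of 11 survival genes 3 (Birc3, Gadd45b and Pim1). Of 9 suppressive neutrophil genes 1 was lower (Ptgs2), of 6 heat shock genes 1 (Hspa5), and of 5 cell cycle genes none. Of 2 measured primary granule genes 1 was lower. The share of all genes that were lower was 14% there. None of these 6 lists, from the transcription factors on, had a member that was higher in all 4 libraries in all cells. In single-lineage cells 9 transcription factors, 5 survival, 3 suppressive, 2 heat shock and 1 cell cycle genes were lower, against 20.4% of all genes. There 3 suppressive genes and 1 survival gene were higher, against 12.4% of all genes.

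**Figure D4:**
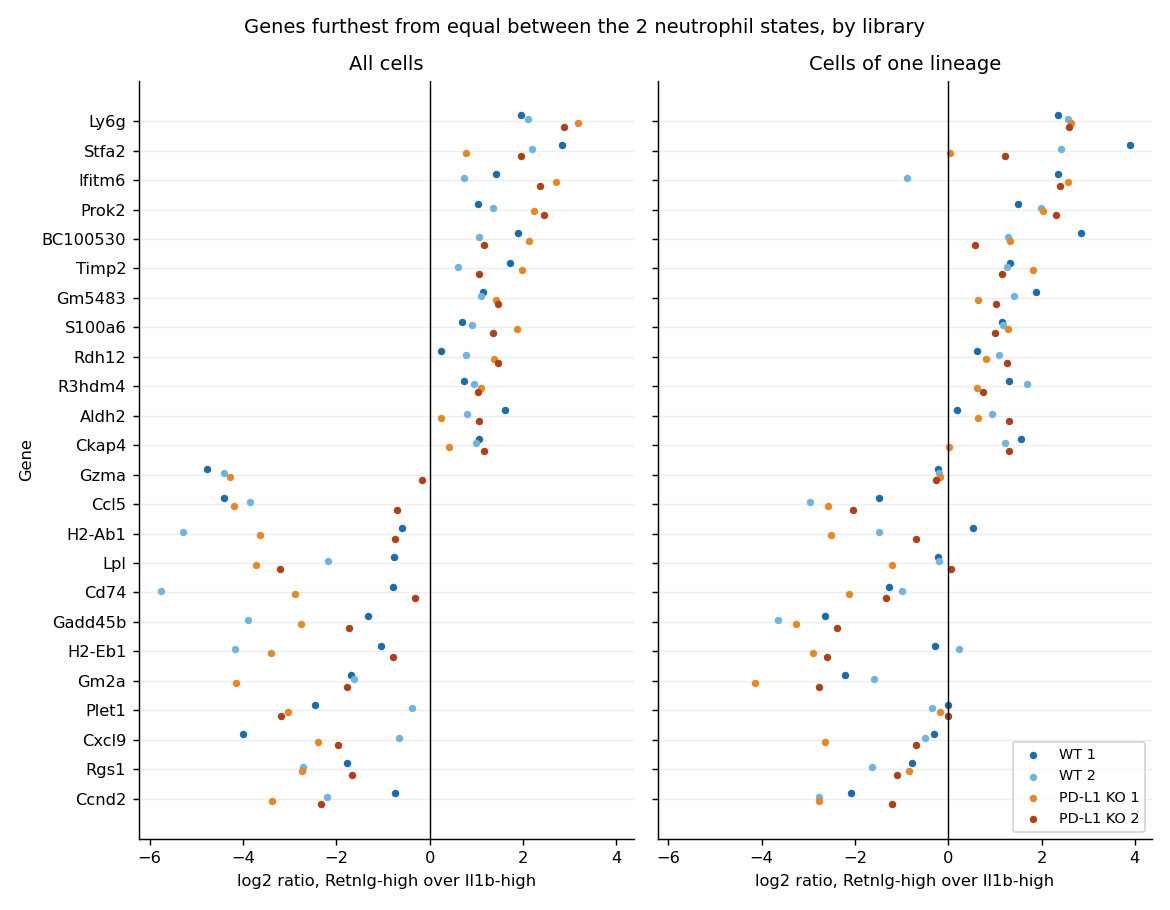
Each point is the log2 ratio of Retnlg-high over Il1b-high neutrophils in 1 library, for the 12 genes furthest above and the 12 furthest below equal, in all cells (left) and in single-lineage cells (right). Ly6g lies between 1.96 and 3.19 in all cells and barely moves on the right, whereas Gzma and Plet1 go from below -2 on average to near 0.

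The comparison of the labels asks whether the genes of Retnlg-high neutrophils differed between lungs with PD-L1 KO and with WT tumors. edgeR's quasi-likelihood test on UMIs summed per library called 0 of 991 genes (0.0%) at an adjusted p of 0.05, while 172 genes had an unadjusted p under 0.05 and the smallest adjusted p was 0.110. DESeq2 called 12 genes (1.21%), 1 higher and 11 lower in PD-L1 KO. In single-lineage cells edgeR called 0 of 510 genes (0.0%), 23 had an unadjusted p under 0.05, and the smallest adjusted p was 0.0796. The median log2 difference over all genes tested was 0.08, and 0.01 in single-lineage cells.

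Retnlg itself was 11470 ± 3194 CPM (SD, n = 2) in WT and 17520 ± 7767 CPM (SD, n = 2) in PD-L1 KO, a log2 difference of 0.81 that became -0.19 in single-lineage cells. S100a8 had a log2 difference of 1.20, and in single-lineage cells its levels were 135900, 121900, 138700 and 149100 CPM, a difference of 0.25. Both genes belong to the rule, so no test is given for them. The gap in calprotectin between the labels was therefore present in the pooled cells and small in the cells of 1 lineage. Ly6g, which the rule did not use, followed the same course, with 1.35 (edgeR adjusted p = 0.246) and 0.29 (adjusted p = 0.989).

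The genes with the smallest p-values were mostly low in PD-L1 KO, and in WT most of their UMIs lay in mixed-marker cells. Ahnak, a large scaffold protein, was 443 and 380 CPM in WT and 0 and 9.25 CPM in PD-L1 KO (edgeR adjusted p = 0.110), and no single-lineage cell held a UMI of it. Tagln2, an actin-binding protein, was 760 and 689 CPM in WT and 45.5 and 64.8 CPM in PD-L1 KO (edgeR adjusted p = 0.110), and 67.2, 52.2, 45.5 and 23.7 CPM in single-lineage cells. Of the UMIs of the 10 genes with the smallest p, 97.6% in WT 1 and 87.3% in WT 2 came from mixed-marker cells, against 0.0% in PD-L1 KO 1 and 6.46% in PD-L1 KO 2. The others were Clic4, Hsp90ab1, Cyb5a, Tppp3, Anxa5, Lmna and Ctla2a, all lower in PD-L1 KO, and Ngp, which was higher. The 6.46% mostly describes Ngp, which gave 409 of the 449 UMIs there, 408 of them in single-lineage cells. Of the 19 Hsp90ab1 UMIs of PD-L1 KO 2, 8 lay in single-lineage cells. In WT 2 all 15 Ctla2a UMIs lay in single-lineage cells.

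Ngp, the neutrophilic granule protein of the secondary granule stage, was 47.5 and 0 CPM in WT and 1114 and 3784 CPM in PD-L1 KO, a log2 difference of 6.20 that did not pass (edgeR adjusted p = 0.113). In single-lineage cells the difference was 5.34 (adjusted p = 0.0796). The values rested on few cells. Of 409 Ngp UMIs in PD-L1 KO 2, 402 lay in 1 cell, and in PD-L1 KO 1 2 cells held all 49. The PD-L1 KO 2 cell, of 9200 UMIs, had 798 UMIs of Ltf, Camp and Ngp together, among them all 287 Camp UMIs and all 109 Ltf UMIs of that library. The 2 PD-L1 KO 1 cells had 26 and 24 such UMIs, and no WT cell had more than 2. The PD-L1 KO 2 cell counted as single-lineage by the definition above, which left out Chil3.

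No member of any gene list was called between the labels by edgeR, against 0.0% of all genes. With the genes of the rule left out of the lists, 8 of 12 granule genes, 6 of 6 calprotectin and stefin genes and 11 of 11 receptors had log2 differences above 0 in all cells, with medians of 0.73, 0.87 and 0.70, beside 517 of all 978 genes tested. In single-lineage cells these counts were 5 of 9, 2 of 6 and 3 of 8, with medians of 0.16, -0.42 and -0.13, beside 254 of all 497 genes. The medians of these 3 groups were thus nearer 0 without the mixed-marker cells. Interferon response genes had a median of 0.29 over 15 genes (0.15 over 11 in single-lineage cells). Ifitm1, an antiviral membrane protein, was 1337, 617, 2592 and 3692 CPM in the 4 libraries in order (edgeR adjusted p = 0.217), and in single-lineage cells 3203, 1356, 2592 and 4424 CPM, where the labels overlapped. Ifi27l2a overlapped in both, at 672, 2066, 728 and 1462 CPM in all cells. Glycolysis genes had a single-lineage median of 0.39 over 7 genes, and heat shock genes one of -0.41 over 3 genes.

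**Figure D5:**
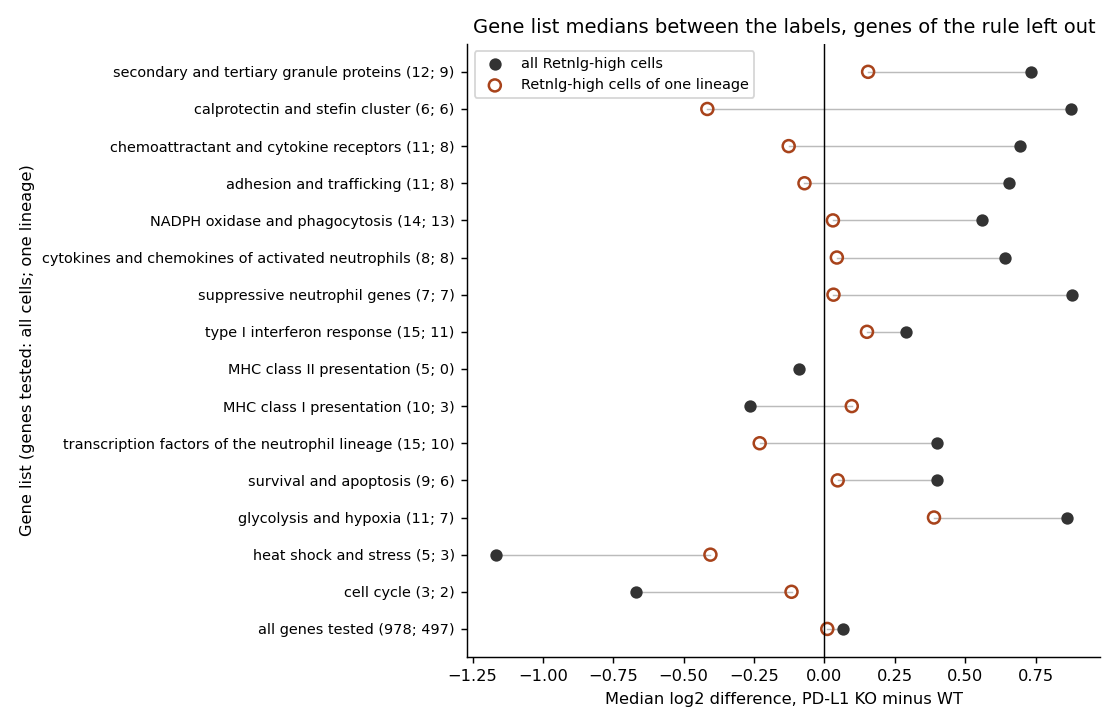
Points are the median log2 difference (PD-L1 KO minus WT) over the tested genes of each list outside the rule, in all Retnlg-high cells (filled) and in single-lineage cells (open), with the numbers of genes tested after each name. The filled points of the granule, calprotectin and receptor lists lie at 0.73, 0.87 and 0.70, and their open points at 0.16, -0.42 and -0.13.

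Whether the labels' effect differed between Retnlg-high and Il1b-high neutrophils was tested as an interaction, with the library as a factor. edgeR called 39 of 5996 genes (0.65%), 8 more positive and 31 more negative in Retnlg-high cells, and DESeq2 called 1, Ngp. Of the UMIs of the 31 genes, 96.7% in WT 1, 91.8% in WT 2 and 66.0% in PD-L1 KO 2 came from mixed-marker cells, and 0.0% in PD-L1 KO 1, which held no such cell. They included Ly6a, Igfbp7 and Mfap4, genes of endothelial or mesenchymal cells, at 1392, 1250 and 1155 CPM in WT 1, each at 0 in WT 2 and at most 9.25 CPM in the PD-L1 KO libraries. Of the 8, 3 were genes of the gate (S100a8, S100a9 and Csf3r), whose values are a description only. The interactions of S100a8 and S100a9 were 1.26 and 1.18, and 0.14 and 0.10 in single-lineage cells.

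In single-lineage cells of both states, 4 of 2952 genes (0.136%) were called: Ngp higher, and Stfa2, Cdk2ap2 and Ccl4 lower. Only Ngp was called in both fits, and 20 of the 39 genes were tested in the latter. Stfa2 was 1523, 939, 182 and 759 CPM in Retnlg-high single-lineage cells of the 4 libraries in order, and the interaction was -2.43 (edgeR adjusted p = 1.38e-05), against -0.84 (adjusted p = 0.560) in all cells. Both PD-L1 KO values lay below both WT values, but 17 of the 18 Stfa2 UMIs of WT 2 came from 1 cell. Cdk2ap2, a regulator of the cell cycle kinase Cdk2, was 1366, 1826, 273 and 581 CPM, on 61, 35, 12 and 49 UMIs. Of the 35 UMIs in WT 2, 16 came from 1 cell. The Cdk2ap2 interaction was -1.78 (edgeR adjusted p = 4.57e-04), against -0.55 (adjusted p = 0.678) in all cells. Ccl4, a chemokine of activated leukocytes, was 0, 2191, 45.5 and 0 CPM, and all 42 WT 2 UMIs lay in 1 cell. The Ngp interaction of 5.72 (edgeR adjusted p = 1.08e-11) fell to 2.87 (adjusted p = 0.388) without the PD-L1 KO 2 cell that held the most granule UMIs.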

How the data were processed

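Single-cell RNA of 4 libraries was measured with the 10x 3' version 3 kit. Per the labels, reads were aligned to mm10 with STAR in Cell Ranger 3.1.0, and the deposited values are raw UMI counts per gene and barcode. Barcodes with at least 200 genes and at most 10% mitochondrial UMIs were kept. The members and gene lists were chosen with earlier results of these data known. Counts were summed per library and state and tested with edgeR 4.0.16 (quasi-likelihood, TMM, Benjamini-Hochberg over all genes tested, R 4.3.3): PD-L1 KO against WT within Retnlg-high cells, and the interaction of label and state with library as a factor. DESeq2 1.42.0, other filters, gates and scalings, and leaving out each library were alternatives. The mixed-marker definition, the thinning to 1000 UMIs and the ratio pseudocount of 20 CPM were set after the data were seen. Cells were named by the gate and rule alone, with no clustering. Doublets were looked for with Scrublet in scanpy 1.11.5 at a rate of 0.8% per 1000 barcodes; it marked no Retnlg-high cell, and cells were not removed in the main results. Shares were compared by exact permutation. Scripts were tested on simulated data.

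Named genes were the marker and rule genes; for each test every gene past an adjusted p of 0.05, at most 15 per direction, or else the 10 with the smallest p; the highest members of each list; and the 15 largest ratios in each direction between the states among genes of at least 100 CPM with the same sign in 4 libraries. Some of these genes are not reported here. Other genes named in the text were chosen after their values were seen. The Retnlg-high cells held 126404, 42111, 43977 and 108085 UMIs in WT 1, WT 2, PD-L1 KO 1, then PD-L1 KO 2. The Wilson intervals of the shares come from counts of cells, and they cover counting error only.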

Additional observations from a re-analysis of the deposited data

Results flagged for a closer look

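The effect of the labels differed between Retnlg-high and Il1b-high neutrophils in edgeR's interaction test for the following genes, given with the log2 interaction (PD-L1 KO minus WT in Retnlg-high cells, less the same in Il1b-high cells). The secondary granule genes Ngp (5.72) and Camp (8.74) were more positive in Retnlg-high cells, with nearly all UMIs of PD-L1 KO 2 in 1 cell. The lymphocyte genes Gzma (10.19) and Ccl5 (4.11) were more positive, and PD-L1 KO 2 held 1 mixed-marker cell with natural killer markers. The neutrophil genes S100a8 (1.26), S100a9 (1.18), Csf3r (1.54) and Osm (1.69), a cytokine of the interleukin-6 family, were more positive, and none of these 4 passed in single-lineage cells; the first 3 are genes of the gate, so their values are a description only. The genes of stromal, endothelial, epithelial or macrophage cells Ly6a (-11.08), Igfbp7 (-9.83), Mfap4 (-5.15), Car4 (-5.00), Sftpc (-3.77), Fn1 (-5.91) and Spp1 (-9.50) were more negative. So were the mitochondrial genes mt-Nd4 (-2.27), mt-Nd1 (-2.42), mt-Atp6 (-1.81) and mt-Cytb (-1.87), and Tagln2 (-3.20), Ahnak (-4.93), Ctla2a (-4.45) and Clic4 (-4.95). Several of these genes rested on 1 cell. In WT 1 the top cell for each gene held 175 of 176 Ly6a, 157 of 158 Igfbp7 and all 146 Mfap4 UMIs. For Car4 and Sftpc it held 40 of 41 and 266 of 268 UMIs. In WT 2, 1 cell held all 29 Fn1 UMIs. Spp1 had 2 UMIs in WT 1 and 9 in WT 2. Mitochondrial UMIs had a median of 3.10% in mixed-marker cells and 0.478% in single-lineage cells. The part of the mixed-marker cells was not tested beyond the single-lineage fit, in which 20 of the 39 called genes were tested and Ngp alone passed. Interactions of genes with 0 UMIs in a library depend on the fit's prior count and are no bound.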

How the results depend on the processing

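The labels called 0 genes by edgeR. The count was also 0 with RLE factors, with the barcodes of the highest Scrublet scores removed and with a gate of at least 20 calprotectin UMIs. It was 0 too with only cells free of a short other-lineage list, with 13 cells from each library and without mixed-marker cells. The short list was Cd79b, Ms4a1, H2-Aa, H2-Ab1, H2-Eb1, Csf1r, Siglecf, Epcam and Cldn5. It leaves out most of the 65 genes of the mixed-marker definition. The count of called genes was 12 with DESeq2 and 12 with no filter on mitochondrial UMIs or genes. It was 113 with no filter on low counts (9 higher, 104 lower), and 8 with the replicate number as a block. It was 2 with at most 5% mitochondrial UMIs and at least 300 genes, 2 with a wider margin of the rule, 2 without the cell with the most granule UMIs and 2 with each cell thinned to 1000 UMIs. Leaving out 1 library at a time gave 0 (PD-L1 KO 2), 3 (PD-L1 KO 1), 18 (WT 1) and 228 (WT 2); the lone library of a label is then assumed to vary like the others. RLE factors moved the median of all genes between the labels from 0.08 to -0.02, and in the interaction from -0.29 to -0.47.

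The interaction called 39 genes, 32 with RLE factors, 30 with at most 5% mitochondrial UMIs and at least 300 genes, and 35 without the highest Scrublet scores. It called 1 with DESeq2, 23 with no filter on low counts and 61 with no filter on mitochondrial UMIs or genes. It called 5 with a gate of at least 20 calprotectin UMIs and 1 with a wider margin. With only cells free of the short other-lineage list it called 0, and 79 of 2297 genes had an unadjusted p under 0.05. It called 1 with equal cell numbers, 17 without the cell with the most granule UMIs and 4 without mixed-marker cells. With thinned cells it called 0, and 89 of 2245 had an unadjusted p under 0.05. Leaving out 1 library gave 13 (WT 1) to 71 (PD-L1 KO 2). The interaction turned positive without WT 1 for Car4 (4.04) and Sftpc (2.04), and leaving out 1 library at a time gave -10.43 to 4.04 for Car4 and -6.36 to 2.04 for Sftpc. With a wider margin it turned positive for Ly6a (0.34), Fn1 (5.67), mt-Nd4 (0.033), Ahnak (6.79), Car4 (5.50), Sftpc (8.18), mt-Cytb (0.063) and Clic4 (6.04). With only cells free of the short other-lineage list it turned negative for Gzma (-0.65) and Ccl5 (-5.28), and without mixed-marker cells positive for Sftpc (1.23). The cause of these changes was not tested, beyond the fewer cells and genes these settings leave.

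The medians of the gene lists between the labels over all their tested members, in log2, were 0.91 (granule), 0.92 (calprotectin and stefin), 0.72 (receptors), 0.66 (adhesion), 0.56 (NADPH oxidase), 0.79 (activation cytokines), 0.66 (suppressive), 0.29 (interferon), -0.089 (MHC class II), -0.27 (MHC class I), 0.40 (transcription factors), 0.40 (survival), 0.86 (glycolysis), -1.17 (heat shock) and -0.67 (cell cycle). With the genes of the rule left out, as in the text, that of the granule genes moved to 0.73. With DESeq2 they moved to 0.78 (granule) and 0.60 (receptors). With RLE factors in edgeR they moved to 0.80 (granule). With no filter on low counts they moved to 1.19 (granule), 0.90 (receptors), 0.76 (NADPH oxidase), 0.29 (activation cytokines), -0.026 (interferon) and -2.10 (cell cycle). With the replicate number as a block they moved to 0.82 (granule). With at most 5% mitochondrial UMIs and at least 300 genes they moved to 0.68 (granule), 0.60 (receptors), 0.32 (NADPH oxidase), 0.008 (interferon), 0.66 (glycolysis) and 0.35 (cell cycle). With a gate of at least 20 calprotectin UMIs they moved to 0.33 (granule), 0.43 (calprotectin and stefin), 0.21 (receptors), 0.33 (NADPH oxidase), 0.043 (activation cytokines), 0.17 (suppressive), -0.048 (interferon), -0.12 (transcription factors), 0.48 (glycolysis) and 0.29 (cell cycle). With a wider margin of the rule they moved to 0.55 (granule), 0.12 (calprotectin and stefin), -0.35 (receptors), -0.21 (adhesion), 0.13 (NADPH oxidase), -0.16 (activation cytokines), 0.064 (suppressive), -0.43 (transcription factors), -0.039 (survival) and 0.21 (glycolysis). With only cells free of the short other-lineage list they moved to 0.12 (granule), 0.041 (calprotectin and stefin), 0.18 (receptors), 0.082 (adhesion), 0.012 (NADPH oxidase), 0.18 (activation cytokines), 0.25 (suppressive), -0.23 (transcription factors), 0.05 (survival), 0.41 (glycolysis) and -2.10 (heat shock). With 13 cells from each library they moved to 0.11 (granule), 0.37 (calprotectin and stefin), 0.34 (receptors), 0.25 (adhesion), 0.049 (NADPH oxidase), 0.12 (suppressive), 0.14 (transcription factors) and 0.11 (survival). With the cell with the most granule UMIs left out they moved to 0.73 (granule). With mixed-marker cells left out they moved to 0.15 (granule), -0.12 (calprotectin and stefin), -0.11 (receptors), -0.071 (adhesion), 0.03 (NADPH oxidase), -0.062 (activation cytokines), 0.032 (suppressive), -0.23 (transcription factors), 0.047 (survival), 0.39 (glycolysis) and -0.41 (heat shock). With each cell thinned to 1000 UMIs they moved to 0.14 (granule), -0.20 (calprotectin and stefin), 0.082 (receptors), 0.15 (adhesion), -0.002 (NADPH oxidase), 0.35 (activation cytokines), 0.17 (suppressive), 0.13 (transcription factors), 0.37 (glycolysis) and 0.17 (cell cycle). Leaving out 1 library at a time, they ranged from 0.81 to 1.19 (granule), 0.92 to 1.42 (calprotectin and stefin), 0.64 to 0.98 (receptors), 0.42 to 0.84 (adhesion), 0.42 to 0.86 (NADPH oxidase), 0.014 to 0.78 (activation cytokines), 0.42 to 0.90 (suppressive), 0.017 to 0.61 (interferon), -1.56 to 3.79 (MHC class II), -1.41 to 0.50 (MHC class I), 0.24 to 0.46 (transcription factors), 0.38 to 0.77 (survival), 0.59 to 1.03 (glycolysis), -2.33 to -0.89 (heat shock) and -1.69 to -0.88 (cell cycle). Under the settings that kept all 4 libraries, the difference in the share of gated neutrophils ranged from 1.39 (a wider margin) to 4.41 percentage points (without mixed-marker cells) and that of kept cells from 0.25 to 0.93. Leaving out 1 library at a time gave 1.08 to 5.11 and -0.0269 to 1.16. With the wider margin the shares of gated neutrophils were 1.34% ± 0.330 (SD, n = 2) in WT and 2.73% ± 1.65 (SD, n = 2) in PD-L1 KO. The labels overlapped there (exact permutation p = 0.6667). The deviations of same-numbered libraries had correlations of 8.8e-04 over 991 genes. With 2 libraries per label this is a single value apart from its sign, so it cannot show whether the numbers pair the libraries. The block is therefore given only as an alternative setting. With 13 to 38 cells per library, genes under about 100 CPM rested on a few UMIs in each library, so small differences in them were not detectable at this depth. Against Il1b-high cells, 52 genes were higher and 398 lower in every library. Under settings chosen after seeing the data, these counts were 107 and 210 with the rule genes left out of the totals, and 81 and 566 without cells carrying a second lineage. Leaving out 1 library at a time gave 76 to 146 higher and 451 to 638 lower.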
